A study of Mus musculus with 25 samples.

Results

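The CC chemokines are secreted proteins in which 2 neighbouring cysteines open the conserved core, and they draw leukocytes that carry the matching G protein-coupled receptors. Macrophages are a main source of them: Ccl2 and Ccl7 attract monocytes, Ccl3, Ccl4 and Ccl5 attract monocytes, T cells and NK cells, and Ccl17, Ccl22 and Ccl24 are known as products of macrophages or dendritic cells under type 2 cytokines. Classical (M1) activation by IFN-γ and LPS works through STAT, IRF and NF-κB factors, and alternative (M2) activation by IL-4 or IL-13 works through STAT6. The genes described here were 10 members fixed by name, Ccl2, Ccl3, Ccl4, Ccl5, Ccl6, Ccl7, Ccl9, Ccl17, Ccl22 and Ccl24, of 24411 genes counted. All 10 had at least 1 read in at least 1 sample.

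RNA-seq libraries from 25 samples in 9 conditions were used. Bone marrow-derived macrophages (BMDMs) were grown from C57BL/6 mouse marrow in DMEM with M-CSF at 25 ng/ml for 4 days. They were then left untreated for 4 h (control), given IFN-γ at 100 U/ml with LPS at 100 ng/ml (IFN-γ-LPS) for 1, 4, 12 or 24 h, or given IL-4 or IL-13, each at 10 ng/ml, for 12 h, with 3 samples in each of these 7 groups. The labels name IFN-γ and LPS together for the stated hours, while the study calls these cells IFN-γ-primed, that is given IFN-γ before LPS, and no interval between the agents is stated in the labels. RAW264.7 cells, an established mouse macrophage-like line that the study traces to Balb/c mice infected with Abelson leukemia virus, were grown in RPMI. They were left untreated for 4 h or given LPS alone at 100 ng/ml for 4 h, with 2 samples each. The BMDM triplicates are described as independent RNA samples, but no animal or culture is named for any sample, so the p-values measure the spread between these samples, which may be partly technical. The single untreated BMDM group stands for every time point, so time in culture and treatment cannot be told apart at 1, 12 and 24 h.

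Levels are in CPM, a gene's sense-strand reads set relative to the total reads on genes in its library, scaled by TMM (a scaling that holds most genes level) after removal of Rn45s, the ribosomal RNA precursor. Rn45s took 20.1% to 39.8% of the reads on genes, which left about 1502620 to 2532500 reads a sample. The share of Rn45s reads on the opposite strand was 0.0386% to 0.122% in the control, 1 h, 4 h and 12 h IFN-γ-LPS libraries and 0.00603% to 0.0283% in all others, so the 24 h, IL-4 and IL-13 libraries stand apart from the control in this measure. Its part in the results was not tested. Arg1 and Chil3, genes of alternative activation, averaged 27.2 and 709 CPM with IL-4 and 0 and 4.95 CPM in the control, and Il12b and Nos2, genes of classical activation, averaged 3121 and 446 CPM after 4 h of IFN-γ-LPS. All 7 macrophage markers listed were present in every BMDM group, and 6 of 7 in RAW264.7 cells, where Mertk was at 0. Of the 4 T cell genes listed, Cd3e, Cd3d and Cd8a were at 0 in every group. The other, Cd4, averaged from 2.53 CPM (24 h of IFN-γ-LPS) to 10.5 CPM (control) in the BMDM groups. The 5 fibroblast genes listed (Col1a1, Col1a2, Col3a1, Dcn and Pdgfra) summed to 71.8 to 106 CPM in the control BMDMs, to 52.1 to 109 CPM in the treated ones, and to 0 in RAW264.7 cells. In such bulk RNA, more cells of a type and more RNA per cell cannot be told apart.

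The members lie on 3 chromosomes of the mouse genome (mm10, GENCODE M21 gene models). Ccl2 (chr11:82035571-82037453) and Ccl7 (chr11:82045712-82047525) are neighbours on the plus strand of chromosome 11, 8258 bases apart. Starting 1478252 bases past Ccl7, Ccl5 (chr11:83525778-83530518), Ccl9 (chr11:83572919-83578636), Ccl6 (chr11:83587882-83593087) and Ccl3 (chr11:83647844-83649355) on the minus strand and Ccl4 (chr11:83662584-83664683) on the plus strand span 138906 bases. Ccl22 (chr8:94745590-94751699) and Ccl17 (chr8:94810453-94812036) lie 58753 bases apart on the plus strand of chromosome 8, with Cx3cl1, a chemokine gene of another class, between them, and Ccl24 (chr5:135569937-135573049) lies alone on the minus strand of chromosome 5.

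RefSeq start-site windows (250 bases before to 50 after the start, GRCm38.p6) were at hand for 5 of the 10 members, and 4 of them are shown, those of the nearby genes Ccl3, Ccl9 and Ccl6, which moved in different ways, and that of Ccl17, which held matches; the window of Ccl22 (chr8:94745434-94745733, plus strand) held none. Each window is written 5′ to 3′ along the gene, and capitals mark matches, on either strand, to 5 words: GGNNTTTCC (NF-κB-like), TTCNNNGAA (GAS-like), TTCNNNNGAA (STAT6-like), GAAANNGAA (ISRE-like, for IRF) and TATAAA, where N is any base.
Ccl3, chr11:83649329-83649628, minus strand: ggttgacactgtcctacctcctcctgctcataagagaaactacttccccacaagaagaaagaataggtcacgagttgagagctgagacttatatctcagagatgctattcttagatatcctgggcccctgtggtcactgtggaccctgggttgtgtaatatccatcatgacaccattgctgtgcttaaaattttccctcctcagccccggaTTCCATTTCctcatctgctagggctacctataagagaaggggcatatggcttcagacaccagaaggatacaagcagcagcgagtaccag
Ccl9, chr11:83578587-83578886, minus strand: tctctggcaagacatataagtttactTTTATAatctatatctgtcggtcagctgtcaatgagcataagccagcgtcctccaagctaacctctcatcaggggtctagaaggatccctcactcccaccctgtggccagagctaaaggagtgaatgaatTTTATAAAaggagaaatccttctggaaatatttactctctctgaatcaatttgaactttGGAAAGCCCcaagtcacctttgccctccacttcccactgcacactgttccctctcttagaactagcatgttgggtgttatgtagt
Ccl6, chr11:83593038-83593337, minus strand: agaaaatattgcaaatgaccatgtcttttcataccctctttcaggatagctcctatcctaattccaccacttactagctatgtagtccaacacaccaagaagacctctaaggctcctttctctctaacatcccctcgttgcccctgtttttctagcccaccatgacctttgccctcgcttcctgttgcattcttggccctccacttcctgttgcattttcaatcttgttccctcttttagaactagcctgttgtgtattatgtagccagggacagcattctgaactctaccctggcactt
Ccl17, chr8:94810203-94810502, plus strand: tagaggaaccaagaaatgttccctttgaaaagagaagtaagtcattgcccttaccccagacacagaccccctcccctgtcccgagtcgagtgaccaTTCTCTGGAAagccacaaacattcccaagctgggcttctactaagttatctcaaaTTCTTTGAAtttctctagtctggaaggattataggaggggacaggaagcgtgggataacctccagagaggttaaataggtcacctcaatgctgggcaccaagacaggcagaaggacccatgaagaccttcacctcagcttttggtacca

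The Ccl9 window held the NF-κB-like word from -35 to -27 and TATAAA from -94 to -87, in overlapping matches on both strands, and again from -224 to -219. The Ccl3 window held 1 ISRE-like match from -39 to -31, and the Ccl17 window held 1 STAT6-like match from -154 to -145 and 1 GAS-like match from -99 to -91. The Ccl6 window held none of the 5 words. Of all 32851 windows of this length, 5.82% held the NF-κB-like word, 8.30% the GAS-like, 6.95% the STAT6-like, 8.56% the ISRE-like word and 13.6% TATAAA. A match is a string of letters and not a measured binding site.

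For 5 members the study's own promoter survey lists a site for RELA, the p65 subunit of NF-κB, and these sites are printed with the NF-κB-like word in capitals.
Ccl2: gGGTGTTTCC
Ccl4: gGGTGTTTCC
Ccl5: gGGAGTTTCC
Ccl9: gGGGCTTTCC
Ccl3: gagagtttcc
The listed sites of Ccl2 and Ccl4 are the same letters. That of Ccl9 is the match seen in its window above, and that of Ccl3 does not hold the word and is not in its window.

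In BMDMs given IFN-γ-LPS, the 10 members together summed to 203 ± 25.9 CPM in control samples (SD, n = 3), rose to 4059 ± 768 CPM at 1 h and 15652 ± 1053 CPM at 4 h, and stood at 9266 ± 926 CPM at 12 h and 8932 ± 505 CPM at 24 h. A gene was called in edgeR's quasi-likelihood test where its false discovery rate (FDR, the Benjamini-Hochberg adjusted p over all genes tested) did not exceed 0.01 and its log2-fold change reached 1.5 in either direction. Of the 10 members, 8 passed the low-count filter, and Ccl17 and Ccl24 did not. Ccl5 and Ccl22, at 4 reads and 1 read in the control, passed it only through the IFN-γ-LPS groups. Their calls as higher were thus in part fixed by the filter, and the counts and medians of the 8 include them. At each of the 4 time points 7 of these 8 were called higher than in the control, namely Ccl2, Ccl3, Ccl4, Ccl5, Ccl7, Ccl9 and Ccl22. Of all 9841 genes tested, 5.02%, 11.2%, 8.78% and 7.62% were called higher at 1, 4, 12 and 24 h. No member was called lower by edgeR or by DESeq2, against 2.18%, 11.3%, 8.46% and 7.34% of all genes at the 4 time points, and at an unadjusted p under 0.05 there were 0 lower members at 1 h and 1, Ccl6, at each later time. The median log2-fold change of the 8 was 4.81, 6.71, 4.81 and 4.58 at 1, 4, 12 and 24 h, beside -0.01, -0.06, -0.01 and 0.00 over all genes tested. Scaled by library totals in place of TMM, the median gene moves by -0.22, -0.56, -0.36 and -0.24 on the log2 scale at these times, and the values given are relative to the TMM scale.

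**Figure D1:**
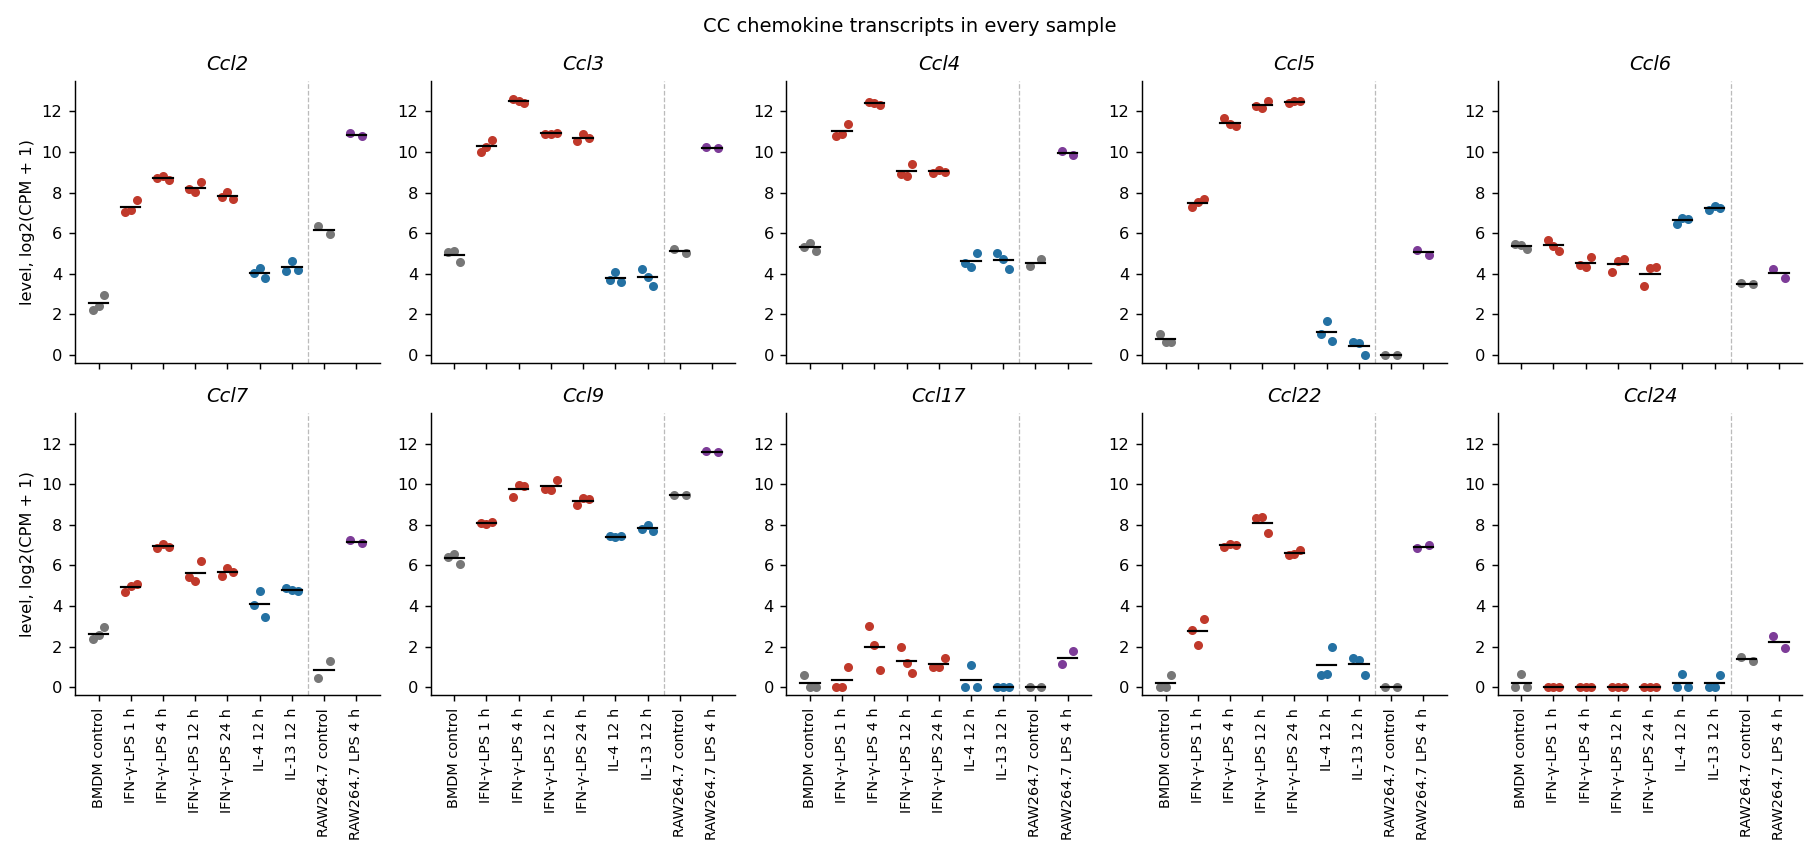
Level of each of the 10 CC chemokines, as log2(CPM + 1), in each of the 25 samples (points) with the group mean of these log values (bars), for control (grey), IFN-γ-LPS (red), IL-4 and IL-13 (blue) and LPS in RAW264.7 cells (purple, right of the dashed line). Ccl3 and Ccl4 are highest at 4 h of IFN-γ-LPS, Ccl5 at 12 and 24 h, Ccl6 under IL-13, and Ccl2 and Ccl9 in RAW264.7 cells with LPS; no sample exceeds 6.96 CPM for Ccl17 or 4.81 CPM for Ccl24.

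Ccl3 and Ccl4, which encode MIP-1α and MIP-1β, were the most abundant members per length at 1 h and at 4 h. Ccl3 measured 32.3, 33.5 and 23.2 CPM in the 3 control samples, 1040.2, 1215 and 1535 CPM at 1 h, 6355, 5858 and 5394 CPM at 4 h, 1923, 1922 and 1941 CPM at 12 h and 1492, 1866 and 1652 CPM at 24 h. Its log2-fold change against control was 7.59 ± 0.15 (SE, FDR = 1.38e-38) at 4 h and 5.78 ± 0.14 (FDR = 3.76e-34) at 24 h. Every treated sample lay above every control sample, and the 3 samples at 4 h lay above all samples at the other times. Ccl4 measured 39.1, 45.4 and 33.7 CPM in the control, 1777, 1918 and 2631 CPM at 1 h, 5686, 5392 and 5097 CPM at 4 h, 484, 451 and 682 CPM at 12 h and 497, 560.0 and 523 CPM at 24 h. Its log2-fold change was 7.06 ± 0.20 (FDR = 2.99e-18) at 4 h and 3.70 ± 0.19 (FDR = 2.70e-13) at 24 h.

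Both genes fell between 4 and 12 h, Ccl3 by 1.61 ± 0.11 (FDR = 1.58e-17) and Ccl4 by 3.32 ± 0.16 (FDR = 1.21e-13) on the log2 scale, and they were the 2 members called lower in that step, against 4.40% of all genes. The ratio of Ccl3 to Ccl4 read counts within a sample, which needs no scaling between samples, went from 0.750 ± 0.069 (SD, n = 3) in the control to 0.601 ± 0.029, 1.09 ± 0.030, 3.69 ± 0.75 and 3.16 ± 0.17 after 1, 4, 12 and 24 h. The 3 ratios at 12 h ran from 2.85 to 4.26 and the 3 at 4 h from 1.06 to 1.12, with no overlap.

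**Figure D2:**
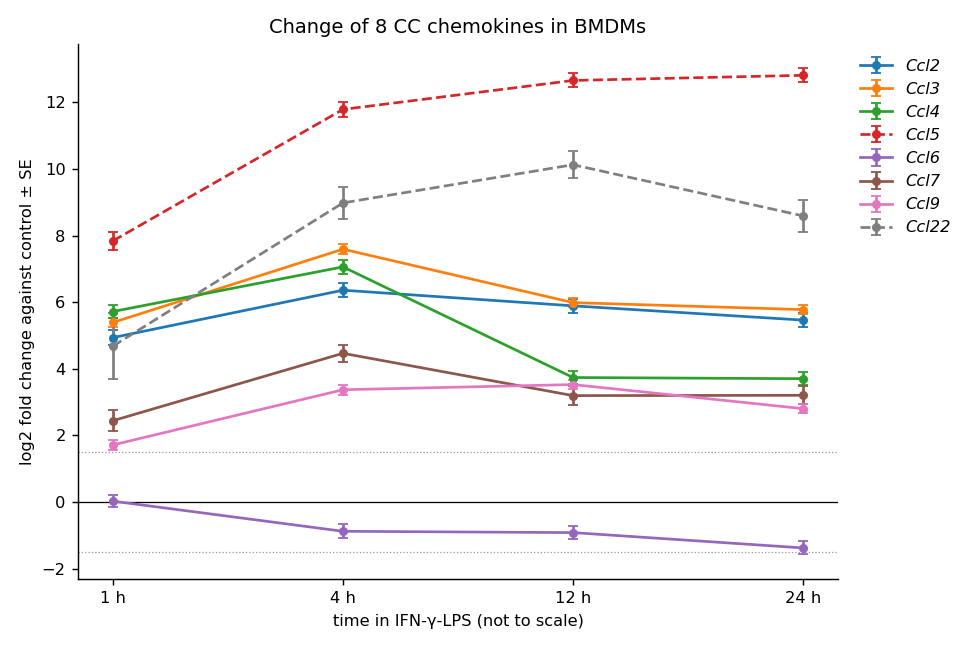
Log2-fold change of the 8 tested CC chemokines against control in BMDMs after 1, 4, 12 and 24 h of IFN-γ-LPS, with standard errors from edgeR; dotted lines mark changes of 1.5 and -1.5, and broken lines mark Ccl5 and Ccl22, whose controls held 4 reads and 1 read. Ccl4 falls from 7.06 at 4 h to 3.74 at 12 h while Ccl5 goes from 11.79 to 12.66, and Ccl6 is the 1 gene below 0 at 4, 12 and 24 h.

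Ccl5 (RANTES, a ligand of CCR1 and CCR3) had the latest course. The control samples held 2, 1 and 1 reads, or 1.06, 0.540 and 0.527 CPM, and treated samples 153, 187 and 203 CPM at 1 h, 3323, 2654 and 2488 CPM at 4 h, 4997, 4677 and 5826 CPM at 12 h and 5549, 5906 and 5811 CPM at 24 h. The groups at 1, 4 and 12 h did not overlap, whereas those at 12 and 24 h did. Its log2-fold change against control was 7.84 ± 0.27 at 1 h and 12.81 ± 0.21 at 24 h, with standard errors that are too small for so few control reads. No FDR is given for these values, as the gene passed the low-count filter only through the IFN-γ-LPS groups. With 4 reads in the control, the 24 h ratio of summed reads, each divided by its library totals without TMM, was 6793-fold. Its 95% counting interval was 2653 to 24932. The steps were 3.95 ± 0.11 from 1 to 4 h (FDR = 2.05e-37), 0.87 ± 0.10 from 4 to 12 h (FDR = 1.83e-11, under the 1.5 cutoff) and 0.15 ± 0.09 from 12 to 24 h (FDR = 0.265).

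Ccl2 and Ccl7, the monocyte attractants MCP-1 and MCP-3, both ligands of CCR2, were near 5 CPM in the control. Ccl2 measured 3.70, 4.32 and 6.85 CPM there, 129, 141 and 196 CPM at 1 h, 421, 452 and 398 CPM at 4 h, 289, 258 and 370.1 CPM at 12 h and 218, 261 and 204 CPM at 24 h. Ccl7 measured 4.23, 4.86 and 6.85 CPM in the control, 25.1, 30.8 and 32.8 CPM at 1 h, 114, 132 and 119 CPM at 4 h, 42.0, 36.5 and 72.3 CPM at 12 h and 43.3, 58.4 and 50.8 CPM at 24 h. Both were highest at 4 h, and no 4 h sample overlapped another BMDM group. The changes at 4 h were 6.36 ± 0.21 for Ccl2 (FDR = 2.18e-29) and 4.46 ± 0.25 for Ccl7 (FDR = 9.74e-20). Counts of Ccl2 to Ccl7 stood in a ratio of 0.921 ± 0.069 in the control and of 5.24 ± 0.70, 3.48 ± 0.19, 6.36 ± 1.1 and 4.50 ± 0.51 at 1, 4, 12 and 24 h.

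Ccl9 (MIP-1γ, a CCR1 ligand) and Ccl6, whose genes are neighbours, took opposite directions. Ccl9 measured 84.1, 95.1 and 67.0 CPM in the control, 271, 266 and 281 CPM at 1 h, 668, 986 and 956 CPM at 4 h, 868, 837 and 1201 CPM at 12 h and 504, 643 and 614 CPM at 24 h. Its change was 1.71 ± 0.15 at 1 h (FDR = 1.33e-11) and 3.53 ± 0.15 at 12 h (FDR = 1.17e-20), and the 4 and 12 h samples overlapped. Ccl6 measured 43.9, 41.0 and 35.9 CPM in the control, 50.2, 40.4 and 34.3 CPM at 1 h, 20.9, 19.1 and 27.1 CPM at 4 h, 15.8, 24.1 and 25.7 CPM at 12 h and 9.36, 18.5 and 19.2 CPM at 24 h. From 4 h on, all 9 treated samples lay below all 3 control samples. The log2-fold changes of Ccl6 were -0.88 ± 0.21 (FDR = 0.000258), -0.92 ± 0.20 (FDR = 5.60e-05) and -1.38 ± 0.20 (FDR = 1.76e-08) at 4, 12 and 24 h, which pass the FDR and not the 1.5 cutoff. Without replicate 3 at 24 h the last value was -1.56 and passed it. In the ratio of Ccl9 to Ccl6 counts, the control samples averaged 2.03 ± 0.25 and the 12 h samples 45.5 ± 10.2.

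Ccl22 (MDC, a ligand of CCR4) went from 0, 0 and 1 read in the control to 6.13, 3.21 and 9.09 CPM at 1 h, 121, 134 and 129 CPM at 4 h, 326, 333 and 191 CPM at 12 h and 89.1, 94.4 and 109 CPM at 24 h. The 12 h samples lay above all others. Against the 1 control read, the 12 h ratio of summed reads, again divided by library totals without TMM, was 1220-fold. Its 95% counting interval was 219 to 48218. Ccl22 was the 1 member called lower from 12 to 24 h, against 0.904% of all genes, by -1.54 ± 0.15 (FDR = 3.76e-09). That call rests on the cutoff: the value was -1.42, -1.40 and -1.48, all under 1.5 in size, without 12 h replicate 1, 12 h replicate 2 and 24 h replicate 1. It was -1.497 in the fit with no filter on low counts and -1.499 in the fit of only these 2 groups, both just short of the cutoff.

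Ccl17 (TARC), the other CCR4 ligand, was at 1, 0 and 0 reads in the control, 8, 4 and 1 reads at 4 h, 5, 2 and 1 reads at 12 h and 2, 2 and 4 reads at 24 h. Over the 3 samples at 4 h that is 3.66 ± 3.09 CPM. The ratio of summed reads to the control, by library totals without TMM, is 13.3-fold with a 95% counting interval of 1.999 to 566. The gene was not tested in the fit. Ccl24 (eotaxin-2) held 1 read over the 3 control samples and 0 reads over the 12 IFN-γ-LPS samples. By library totals without TMM, 3 reads over a group would be 0.438 to 0.605 CPM in the IFN-γ-LPS groups. No change was thus detectable at this depth.

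From 1 to 4 h, 5 of the 8 tested members were called higher, against 6.98% of all genes: Ccl3, Ccl5, Ccl7, Ccl9 and Ccl22. Ccl2 (1.42 ± 0.13) and Ccl4 (1.34 ± 0.15) were just under the 1.5 cutoff and passed it, at 1.63 and 1.53, without 1 h replicate 3. From 4 to 12 h Ccl7 changed by -1.27 ± 0.17, and by -1.62 without 12 h replicate 3, which passes the cutoff.

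Levels of different genes are comparable only per length, here per kilobase of merged exons. In the control, Ccl4 made up 37.2% ± 1.4 (SD, n = 3) of the members' summed level per kilobase, Ccl3 24.0% ± 2.0, Ccl9 16.8% ± 0.88 and Ccl6 14.1% ± 1.0. At 1 h Ccl4 made up 59.9% ± 1.2 and Ccl3 31.0% ± 0.86. At 4 h Ccl4 stood at 41.6% ± 0.85, Ccl3 at 39.0% ± 0.31 and Ccl5 at 14.9% ± 1.3. Ccl5 led at 12 h with 56.6% ± 1.0 and at 24 h with 63.3% ± 1.6, and Ccl4 had come down to 8.52% ± 1.1 and 8.41% ± 0.078. With IL-4, Ccl9 (27.8% ± 2.5) and Ccl6 (27.1% ± 1.1) led with overlapping ranges, and with IL-13 Ccl6 (31.6% ± 3.3) and Ccl9 (28.2% ± 1.3) did, also with overlap.

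**Figure D3:**
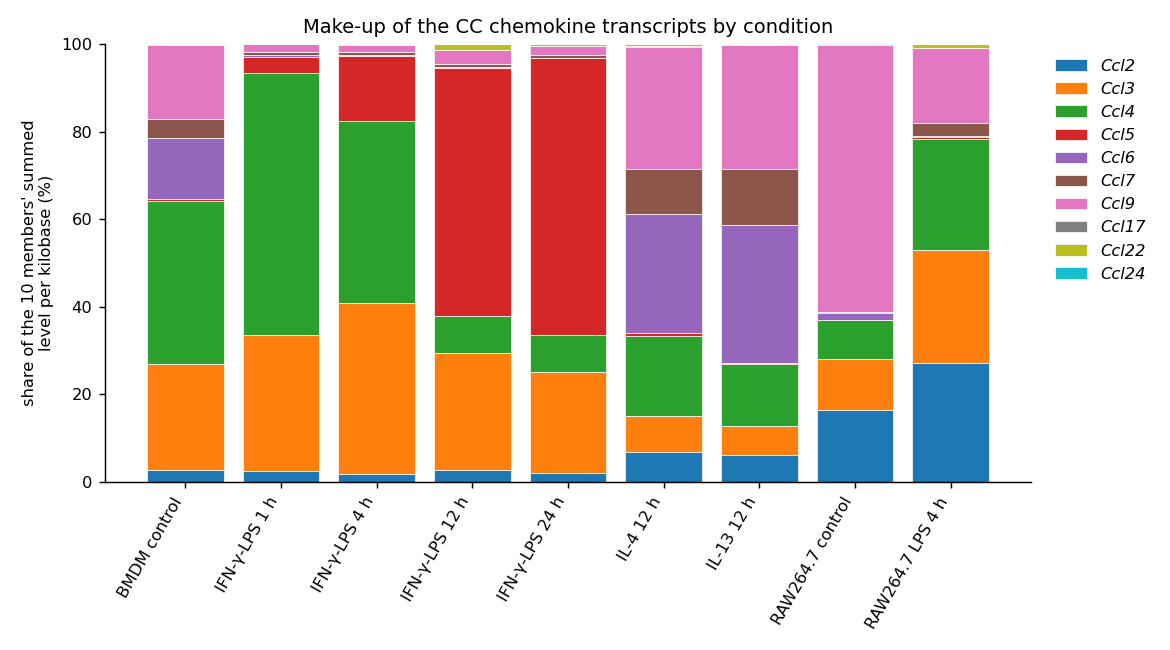
Share of each CC chemokine in the 10 members' summed level per kilobase of exon (%), as the mean over the samples of each condition. Ccl4 is the largest share in the control and at 1 h, Ccl5 at 12 and 24 h (56.6% and 63.3%), Ccl6 and Ccl9 under IL-4 and IL-13, and Ccl9 in untreated RAW264.7 cells (60.9%).

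The second question of the study was what IL-4 and IL-13 do in BMDMs at 12 h. Here the cutoff was a log2-fold change of 0.7 at the same FDR. With IL-4, 4 of the 8 tested members were called higher (Ccl2, Ccl6, Ccl7 and Ccl9), against 2.10% of all genes, and 1 lower (Ccl3), against 1.42%. The same 4 and the same 1 were called with IL-13, against 2.92% and 1.99%. Both comparisons use the same 3 control samples. The median log2-fold change of the 8 was 1.16 with IL-4 and 1.68 with IL-13, beside -0.01 and 0.00 over all genes.

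Ccl6 measured 88.0, 107 and 101 CPM with IL-4 and 139, 162 and 150.1 CPM with IL-13, against 35.9 to 43.9 CPM in the control. The 3 groups did not overlap, and the changes were 1.28 ± 0.15 (FDR = 1.52e-09) and 1.89 ± 0.14 (FDR = 2.01e-16). Ccl9 measured 174, 166 and 172 CPM with IL-4 and 224, 252 and 209 CPM with IL-13, against 67.0 to 95.1 CPM in the control. Again the 3 groups stood apart, with changes of 1.04 ± 0.15 (FDR = 5.54e-06) and 1.47 ± 0.15 (FDR = 2.95e-09).

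Ccl2 measured 15.6, 18.1 and 13.0 CPM with IL-4 and 16.5, 23.5 and 17.1 CPM with IL-13, and its changes were 1.63 ± 0.34 (FDR = 0.000503) and 1.92 ± 0.32 (FDR = 1.24e-05). Ccl7 measured 15.6, 25.8 and 10.1 CPM with IL-4 and 29.1, 26.6 and 25.6 CPM with IL-13, with changes of 1.67 ± 0.35 (FDR = 0.000562) and 2.32 ± 0.31 (FDR = 2.39e-07). All treated samples of both genes lay above the control, whose highest sample was at 6.85 CPM for each. For Ccl7 the IL-4 call was lost without IL-4 replicate 2 (1.26, FDR = 0.0206). The ratio of Ccl2 to Ccl7 counts was 0.999 ± 0.30 with IL-4 and 0.707 ± 0.16 with IL-13, where the IFN-γ-LPS samples ranged from 3.34 to 7.07.

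Ccl3 went down to 12.0, 15.9 and 11.2 CPM with IL-4 and 17.7, 13.3 and 9.54 CPM with IL-13, all below the control, by -1.19 ± 0.23 (FDR = 0.000154) and -1.16 ± 0.22 (FDR = 0.000132). Ccl4 measured 21.9, 19.2 and 31.9 CPM with IL-4 and 31.9, 25.1 and 18.1 CPM with IL-13, all below the 33.7 CPM of the lowest control sample, and its values of -0.72 ± 0.27 (FDR = 0.101) and -0.68 ± 0.26 (FDR = 0.102) were not called. In the fit of only the IL-4 and control samples Ccl4 was at -0.72 with FDR = 0.000325 and was called lower, as it was with no filter on low counts (-0.71).

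The members best known as products of alternative activation were near 0. Ccl22 held 1, 1 and 5 reads with IL-4 and 3, 3 and 1 reads with IL-13. Ccl17 held 0, 2 and 0 reads with IL-4 and 0 reads over the 3 IL-13 samples. There 3 reads would be 0.590 CPM by library totals without TMM. Ccl24 held 1 read with each cytokine. Dendritic cells are another source of Ccl17 and Ccl22, and the 6 dendritic cell genes listed summed to 248 to 343 CPM with IL-4 and 270.3 to 439 CPM with IL-13, against 131 to 166 CPM in the control, and nearly all of it was Itgax, which macrophages share. Of the 6, Xcr1 was at 0 in all 3 groups and Flt3 was at 0 in the control and with IL-4.

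IL-13 and IL-4 were also compared with each other. No tested member was called by edgeR or by DESeq2, against 0.0508% of all genes called higher, and 3 members (Ccl6, Ccl7 and Ccl9) were higher at an unadjusted p under 0.05. Ccl6 was nearest, higher with IL-13 by 0.61 ± 0.13 (FDR = 0.0128), and no IL-13 sample overlapped an IL-4 sample.

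Set against IL-4 at the same 12 h, with the 1.5 cutoff, IFN-γ-LPS gave 7 members higher (against 8.99% of all genes) and 1, Ccl6, lower (against 7.46%). Set against IL-13 it gave 6 higher (against 8.95%) and again Ccl6 lower (against 7.55%). The higher members in both include Ccl5 and Ccl22, which passed the low-count filter only through the IFN-γ-LPS groups. Ccl6 was lower by -2.20 ± 0.17 and -2.81 ± 0.16. Ccl7 made the difference between the counts, at 1.52 ± 0.22 against IL-4 and 0.88 ± 0.20 against IL-13. Its call against IL-4 was lost without 12 h replicate 3 (1.17), IL-4 replicate 1 (1.45) or IL-4 replicate 3 (1.27), and in the fit with no filter (1.497).

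**Figure D4:**
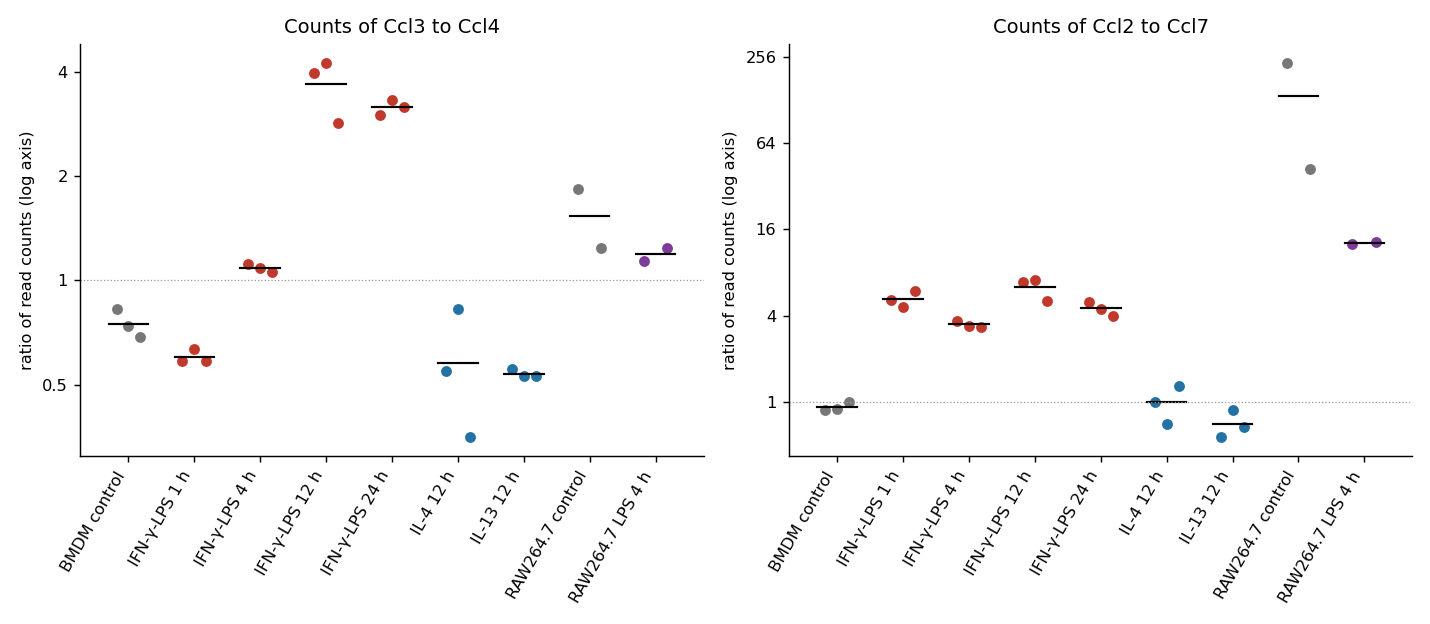
Ratio of read counts within each sample (points, log axis) with the group mean (bars) for the neighbouring genes Ccl3 and Ccl4 (left) and Ccl2 and Ccl7 (right), coloured as in the plot of levels. Ccl3 to Ccl4 is above 2.8 at 12 and 24 h of IFN-γ-LPS and below 0.9 in the control and with IL-4 or IL-13; the 2 untreated RAW264.7 samples on the right rest on 1 and 4 reads of Ccl7.

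RAW264.7 cells were compared at 4 h with and without LPS, at a log2 cutoff of 2. Here 7 of the 8 tested members were called higher, against 2.39% of the 9406 genes tested: the same 7 names as in BMDMs. Ccl5 and Ccl22, at 0 reads in the control, and Ccl7, at 5, passed the low-count filter only through the LPS samples. With 2 samples a group, the spread is taken largely from all genes together, and some adjusted p-values were too small to be represented, so they are not printed. The median of the 8 log2-fold changes was 5.34 whether the 2 genes at 0 in the control were entered as fitted or at their lower bounds, beside 0.00 over all genes.

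Ccl2 measured 81.7 and 60.8 CPM in untreated RAW264.7 cells and 1935 and 1777 CPM with LPS, a change of 4.74 ± 0.08. It was the first of the members per length with LPS (27.1% of their sum), and those 2 samples were above all others in the series. Ccl9 measured 697 and 718 CPM without and 3197 and 3065 CPM with LPS, a change of 2.19 ± 0.07. Untreated RAW264.7 cells thus lay in the range of BMDMs after 4 h of IFN-γ-LPS for Ccl9. Ccl3 went from 36.1 and 31.9 to 1214 and 1168 CPM (5.17 ± 0.10) and Ccl4 from 19.6 and 25.7 to 1065 and 939 CPM (5.51 ± 0.10), both below the 4 h BMDM samples. Ccl7 went from 0.351 and 1.45 CPM, or 1 and 4 reads, to 152 and 135 CPM (7.30 ± 0.26).

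Ccl5 and Ccl22 were at 0 reads in both untreated RAW264.7 samples. With LPS, Ccl5 measured 34.5 and 29.9 CPM, at least 54.4-fold higher than 3 reads over the control group would give, and Ccl22 measured 115 and 126 CPM, at least 206-fold higher. The Ccl5 level stood far below the 2488 to 3323 CPM of BMDMs at 4 h of IFN-γ-LPS, while the Ccl22 range overlapped the 121 to 134 CPM of those BMDMs. Ccl6 measured 10.5 and 10.1 CPM without and 18 and 12.8 CPM with LPS, and its value of 0.60 ± 0.27 (FDR = 0.0596) was not called. Ccl24 was highest of all conditions here, at 5 and 4 reads without and 12 and 8 reads with LPS, and Ccl17 held 0 reads without and 3 and 7 with LPS.

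Untreated RAW264.7 cells against untreated BMDMs gave 2 members higher, Ccl2 by 3.80 ± 0.27 (FDR = 1.19e-15) and Ccl9 by 3.09 ± 0.14 (FDR = 2.85e-20), against 9.67% of 10612 genes, and 1 lower, Ccl7 by -2.52 ± 0.68 (FDR = 0.00114), against 13.3%. The Ccl7 call was lost without RAW264.7 control replicate 1 (-1.84, FDR = 0.0325). Ccl6 was at -1.98 ± 0.22 (FDR = 2.98e-12), just under the cutoff of 2, which it passed at -2.06 without BMDM control replicate 3 and at -2.003 in the fit of only these 2 groups. Cell type, mouse strain and medium differ together in this comparison and cannot be told apart.

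The 4 h responses of both cell types were compared by an interaction term. Cell type, mouse strain, medium and the presence of IFN-γ differ together here and cannot be told apart. The response of Ccl3 was smaller in RAW264.7 cells by -2.48 ± 0.22 on the log2 scale (FDR = 3.30e-13; 4.88% of all genes were called lower) and that of Ccl7 was larger by 2.75 ± 0.70 (FDR = 0.00162; 3.38% were called higher). The Ccl7 call was lost without BMDM control replicate 3 (2.51, FDR = 0.0129) or RAW264.7 control replicate 1 (2.08, FDR = 0.0386). Ccl2 (-1.67 ± 0.34), Ccl4 (-1.61 ± 0.35), Ccl9 (-1.24 ± 0.19) and Ccl6 (1.43 ± 0.35) passed the FDR and not the cutoff of 2. For Ccl5 and Ccl22 the interaction cannot be read, since RAW264.7 control cells held 0 reads.

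**Figure D5:**
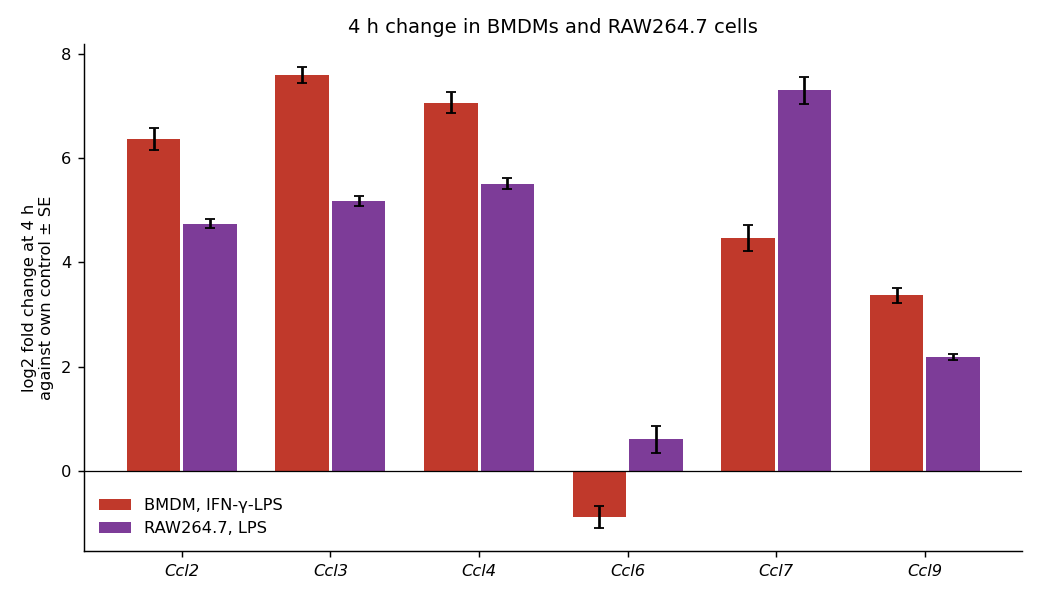
Log2-fold change at 4 h against the untreated cells of the same type, with standard errors from edgeR, for the 6 CC chemokines with reads in both controls, in BMDMs given IFN-γ-LPS (red) and RAW264.7 cells given LPS alone (purple). Ccl3 is 7.59 in BMDMs and 5.17 in RAW264.7 cells, and Ccl7 is 4.46 and 7.30.

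Of the 11 other CC chemokine genes listed, 3 reached a group mean of 5 CPM: Ccl12 (MCP-5, a CCR2 ligand), Ccl8 and Ccl25. Ccl12 had 0 reads in the control BMDMs and averaged 7.87 ± 3.3, 24.7 ± 5.5, 21.1 ± 9.6 and 9.97 ± 1.9 CPM at 1, 4, 12 and 24 h of IFN-γ-LPS. In RAW264.7 cells it held 1 read in the control and averaged 8.07 ± 5.0 CPM with LPS. It was called higher at each time and in RAW264.7 cells with LPS. However, Ccl12 passed the low-count filter only through the IFN-γ-LPS groups and the LPS samples, so these calls were in part fixed by the filter. Ccl8 averaged at most 5.63 ± 3.0 CPM and Ccl25 at most 5.07 ± 2.6 CPM, both at 24 h, and neither was tested in BMDMs.

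Genes for CC chemokine receptors were described where they reached 5 CPM in a group. Ccrl2, an atypical receptor that binds chemerin, rose from 31.2 ± 6.9 CPM in the control to 1774 ± 164 CPM at 1 h and 1773 ± 143 CPM at 4 h, and was called higher at all 4 times. Ccr7, the receptor for CCL19 and CCL21, held 0 reads in the control and at 1 h and averaged 18.4 ± 5.6 CPM at 12 h and 19.2 ± 2.0 CPM at 24 h. Ccr1 rose at 1 h from 11.7 ± 1.9 to 43.2 ± 8.3 CPM (1.84 ± 0.28, FDR = 1.86e-06) and with IL-13 to 31.6 ± 1.8 CPM (1.42 ± 0.29, FDR = 0.000579). Ccr3 was called lower at 12 h (-3.40 ± 0.58) and 24 h (-4.11 ± 0.59). Ccr2 reached 5 CPM only in RAW264.7 cells, at 7.62 ± 3.6 CPM untreated and 14.4 ± 2.3 CPM with LPS. In BMDMs Ccr2 averaged 3.20 ± 0.57 CPM in the control and was called lower at 24 h (-3.12 ± 0.79, FDR = 0.000619), at 2 reads over 3 samples. Ccr4, the receptor for CCL17 and CCL22 (named after its values were seen), was at 0 in every sample.

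Of 8 genes for receptors of the stimuli, Cd14, the LPS co-receptor, was called higher at all 4 times of IFN-γ-LPS (3.93 ± 0.10 at 4 h) and lower with IL-4 (-1.89 ± 0.11) and IL-13 (-1.91 ± 0.11). Il2rg was also higher at all 4 times (2.94 ± 0.17 at 4 h). Untreated RAW264.7 cells had higher Cd14 (2.08 ± 0.10) and lower Ifngr1 (-2.08 ± 0.13) and Il4ra (-2.63 ± 0.17) than untreated BMDMs.

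A list of 23 genes held factors of the NF-κB, IRF and STAT pathways and their feedback, as well as the regulators Pparg, Egr2, Klf4 and Kdm6b. At 1, 4, 12 and 24 h, 13, 19, 13 and 11 of them were called higher, and 0, 2, 2 and 3 lower. Of all genes, 5.02%, 11.2%, 8.78% and 7.62% were called higher and 2.18%, 11.3%, 8.46% and 7.34% lower. The lower counts are thus near those shares. The largest rises at 4 h were those of Socs3 (9.80 ± 0.23) and Cish (8.90 ± 0.62), feedback inhibitors of cytokine signalling, and the falls were those of Pparg (-3.65 ± 0.31) and Egr2 (-3.05 ± 0.37). In the step from 4 to 12 h, in which Ccl3 and Ccl4 fell, 10 of the 23 were called lower, against 4.40% of all genes, with the largest changes in Cish (-5.28 ± 0.42) and Irf8 (-3.74 ± 0.12). With IL-4 and with IL-13, 6 were called higher, against 2.10% and 2.92% of all genes, led by Cish (5.93 ± 1.03 and 7.57 ± 0.76), and Nfkbiz, an NF-κB cofactor, was the 1 called lower (-1.32 ± 0.22 with each), against 1.42% and 1.99%. In RAW264.7 cells 9 of the 19 tested were called higher with LPS, against 2.39% of all genes, led by Nfkbiz (5.26 ± 0.12) and Socs3 (4.29 ± 0.18). The interaction at 4 h called 12 of the 23 as less responsive in RAW264.7 cells, against 4.88% of all genes, led by Cish (-5.76 ± 1.70) and Socs3 (-5.58 ± 0.52).

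For each member the 3 genes most like it were those with the highest Pearson r of log2(mean CPM + 1) over the 9 conditions, among 9459 genes that reached 10 CPM. They are a description of 9 points that share libraries. Ccl3 was most like Nod2 (r = 0.997), Irg1 (0.992) and Hcar2 (0.988), and Ccl4 most like Pde4b (0.980), Cxcl2 (0.977) and Tnf (0.975). Ccl5 was most like Sod2 (0.990), Ifit3 (0.984) and Il2rg (0.983), and Ccl22 most like Ikbke (0.979), Bcl2a1a (0.967) and Slc11a2 (0.964). Ccl6 was most like Nfya (0.980), Mrc1 (0.978), the mannose receptor gene used as a mark of alternative activation, and B3gnt7 (0.968). Ccl2 was most like Jdp2 (0.958), Ccl7 like Rgs16 (0.951) and Ccl9 like St7 (0.982). Among the members themselves, Ccl3 and Ccl4 had r = 0.960, and Ccl6 had a negative r with each of the other 7 members above 10 CPM, from -0.68 with Ccl9 to -0.02 with Ccl7.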

How the data were processed

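RNA of 21 BMDM and 4 RAW264.7 samples was sequenced after removal of rRNA (the labels also call the molecule polyA RNA). Per the labels and the submitters' processing notes, the authors used CASAVA 1.8.2, Trimmomatic 0.33 and STAR 2.5.1 on mm10, and the deposited read counts per gene symbol come from STAR with unstranded, sense and opposite-strand columns; uniquely mapped reads only are counted, so near-identical genes may be undercounted. The release of the annotation is not given in the sources used here. Sense counts were used. Rn45s was removed and TMM factors were computed. The tests were edgeR 4.0.16 quasi-likelihood fits in R 4.3.3 (filterByExpr by group, Benjamini-Hochberg adjusted p) over 21 BMDM, 4 RAW264.7 or all 25 samples, with the FDR cutoff 0.01 and log2 cutoffs 1.5, 0.7 and 2 after the study. SE is the log2-fold change divided by the square root of F, and is too small where a control holds few reads. Counting intervals are exact 95% intervals that cover counting error only, and lower bounds use 3 reads over the group. The ratios with such intervals, the lower bounds and the CPM values given for 3 reads are scaled by library totals without TMM. Alternatives were DESeq2 1.42.0, RLE scaling, no filter, unstranded counts, Rn45s kept, a replicate block, only the groups compared, and leaving out each sample. The 10 members, the lists of relatives, receptors and factors, and the words searched were chosen with earlier results of these data known, so no p adjusted over the list alone is given. The text names every member, relatives and receptors that reach 5 CPM in a group, the 2 factors with the largest change in each direction, and the 3 most similar genes. Some items of these lists are not reported here. The code was tested on simulated data. Replicate numbers of the labels did not pair the samples.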

Additional observations from a re-analysis of the deposited data

Results flagged for a closer look

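Tests of the difference between effects called 2 members, both in the comparison of the 4 h responses of RAW264.7 cells (LPS) and BMDMs (IFN-γ-LPS). The log2 difference was -2.48 for Ccl3 and 2.75 for Ccl7. The Ccl7 value rests on 1 and 4 reads in the RAW264.7 control samples. Its call was lost without BMDM control replicate 3 or RAW264.7 control replicate 1. Groups of 2 or 3 samples are too small for a search for outlying samples.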

How the results depend on the processing

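With the samples kept, 820 of 830 member fold changes under an alternative kept their direction and side of the cutoffs, 3 lost the call, 3 gained it and 4 changed sign. With a sample left out, 693 of 728 did so, 10 lost the call, 5 gained it and 20 changed sign; the causes were not tested. The sign changed for values near 0: Ccl4 from 12 to 24 h (-0.04) was 0.0062 with no filter, 0.0066 with Rn45s kept and 0.011 in the fit of only the groups compared, and Ccl6 from 4 to 12 h (-0.04) was 0.0010 in the last of these. From 12 to 24 h, 0 members were lower with no filter and in the fit of only the groups compared, where edgeR in the full fit called 1, DESeq2 1, and 5 were lower at an unadjusted p under 0.05. With IL-4, 2 members were lower in both of those fits. Between IL-13 and IL-4, 5 genes were higher, and 1 by DESeq2 and 3 each with RLE scaling, unstranded counts and Rn45s kept; 0 were lower by edgeR or DESeq2 (239 at an unadjusted p under 0.05) and 1 in the fit of only the groups compared. In RAW264.7 cells, 78 genes were lower with LPS and 44 by DESeq2.

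Leaving out each sample in turn gave these ranges. At 1 h against control, Ccl6 ran from -0.14 to 0.17. From 4 to 12 h, Ccl6 ran from -0.17 to 0.16 and Ccl9 from -0.020 to 0.25. From 12 to 24 h, Ccl4 ran from -0.14 to 0.16, Ccl7 from -0.16 to 0.36, the lower members from 0 to 1 and all higher genes from 33 to 53. At 24 h against control, lower members ran from 0 to 1. Between IL-13 and IL-4, all higher genes ran from 1 to 4, Ccl3 from -0.19 to 0.23, Ccl4 from -0.16 to 0.27 and Ccl22 from -0.45 to 1.10. Between untreated RAW264.7 cells and BMDMs, lower members ran from 0 to 2 and Ccl22 from -2.36 to 0. In the 4 h interaction, higher members ran from 0 to 1 and Ccl22 from -0.10 to 2.28.

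Samples with the same replicate number did not deviate together: the mean correlation was 0.017 in BMDMs, from -0.065 to 0.17, and 0.0090 in RAW264.7 cells. A replicate block left 7 higher members at each of the 4 times and changed no count of members called. Of the 62 levels of at least 5 CPM, scaling by library totals gave 0.728 to 1.30 times the value, and keeping Rn45s gave 0.666 to 0.709 times. Over all 90 levels, 58 and 31 stayed within 1 SD. The 3 genes most like a member were mostly others, with 0 or 1 of 3 shared, when only the 7 BMDM conditions entered. At this depth, Ccl17, Ccl24 and the controls of Ccl5 and Ccl22 rest on single reads.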
